A study of Homo sapiens with 41 samples.

Results

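Sprouty and Spred proteins are inhibitors of the signalling route that leads from growth factor receptors to the kinase ERK. The 6 genes described here are SPRY1, SPRY2, SPRY4, SPRED1, SPRED2, and SPRED3. They were taken by symbol from a table of 58721 annotated genes, with earlier results of these data known. All 6 were among the 21629 genes that passed a filter on low counts.

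The RNA came from T98G, an established human glioblastoma cell line. Cells were kept for 72 h without serum, which arrests their growth, and then received medium with 20% fetal calf serum. The unstimulated cells form the 0 min group, and cells lysed after 10 min, 20 min, and so on to 400 min form the other groups. Their total RNA was sequenced after removal of rRNA. The cells of each of the 41 groups were seeded separately and gave a single library. All groups shared the line and the starvation, and none of the libraries was from cells left without serum for the length of the course, so the effects of serum and of time in culture cannot be told apart. Since no time point was repeated, each error given here is the scatter of the libraries about a smooth curve of time fitted to each gene. A change is the log2 difference between 2 points of that curve, with its standard error (SE), and was called at an adjusted p below 0.01 in edgeR's quasi-likelihood test over all 21629 genes. The 5 comparisons with 0 min share the same start of the curve.

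Libraries held 18206982 counts at 20 min to 64948114 at 70 min, with a median of 41773419. Of the markers of glial and mesenchymal glioblastoma cells, VIM, CD44, and SOX9 had at least 597 counts in each library, and NES had 14 to 72. SOX2, GFAP, and S100B had 0 to 6 counts, so the glial markers proper were at or near 0 in this line. The leukocyte markers PTPRC, CD3E, and CD14 did not exceed 12 counts, and RBFOX3, of neurons, did not exceed 1, while the synaptic gene SNAP25 had 227 to 1023. The endothelial markers PECAM1, VWF, and CDH5 had at most 39 counts, and MBP and MOG, of oligodendrocytes, at most 9.

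When a growth factor binds its receptor tyrosine kinase, adaptors such as GRB2 and the exchange factor SOS1 load RAS with GTP, and RAS then starts the kinase chain of RAF, MEK, and ERK. Sprouty proteins act at the level of receptors, adaptors, and RAF to weaken this chain. Spred proteins bind neurofibromin, the product of NF1, and bring it to the membrane, where it returns RAS to its inactive form. Inherited loss of SPRED1 causes Legius syndrome, which resembles a mild form of neurofibromatosis. Sprouty genes are known as targets of the route they inhibit, so their transcripts are widely read as a sign of ERK feedback.

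Upstream sequences of 3 genes are printed because these genes stood for 3 courses in the data, a fast rise (SPRY2), a steep fall (SPRY1), and a slow climb (SPRED1). Each runs 5′ to 3′ along the gene over the 250 bases before a RefSeq start site on GRCh38.p14 and holds no base of an annotated exon. Capitals mark matches to the motifs searched. SPRY1 lies on the plus strand of chromosome 4, and its window spans chr4:123396545-123396794. The window of SPRY2 spans chr13:80341127-80341376 on the minus strand. That of SPRED1 spans chr15:38252586-38252835 on the plus strand.
SPRY1: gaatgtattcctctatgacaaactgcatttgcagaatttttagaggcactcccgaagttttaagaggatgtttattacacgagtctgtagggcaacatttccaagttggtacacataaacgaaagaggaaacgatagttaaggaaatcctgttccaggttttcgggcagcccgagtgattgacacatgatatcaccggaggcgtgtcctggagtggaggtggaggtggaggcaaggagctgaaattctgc
SPRY2: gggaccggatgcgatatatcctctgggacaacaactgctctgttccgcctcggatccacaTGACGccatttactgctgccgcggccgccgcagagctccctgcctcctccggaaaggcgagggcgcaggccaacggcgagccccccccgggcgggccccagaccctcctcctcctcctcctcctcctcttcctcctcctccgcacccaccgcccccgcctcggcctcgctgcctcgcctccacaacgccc
SPRED1: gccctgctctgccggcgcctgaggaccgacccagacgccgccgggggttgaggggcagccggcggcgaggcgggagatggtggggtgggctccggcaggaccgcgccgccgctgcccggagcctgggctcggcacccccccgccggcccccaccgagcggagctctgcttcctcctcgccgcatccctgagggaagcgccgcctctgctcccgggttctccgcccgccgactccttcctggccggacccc

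The 6 genes have 11 windows of this length before RefSeq start sites, and not all are free of annotated exons. All 250 bases of the second SPRY1 window lie in annotated exons. The SPRY4 window holds 170 such bases, and the SPRED3 window with the AP-1 site named below holds 126. G and C made up 45.6% of the printed SPRY1 window, 70.4% of that of SPRY2, and 78.4% of that of SPRED1, against a median of 58% over all 35116 windows. The cyclic AMP response half-site TGACG, read on both strands, was in 2 of the 11 windows and in 21.2% of all windows. These were the printed SPRY2 window, at bases -190 to -186 from the start, and the window of SPRY4, at bases -68 to -64. The AP-1 site TGANTCA was in 1 window, of SPRED3, and in 6.57% of all windows. The ETS site CCGGAAG was in 1 window, of the second SPRY1 start, and in 8.52% of all. The CArG box and the FOXO site TGTTTAC were in none of the 11 windows, and in 1.16% and 2.98% of all. These motifs were chosen after the values were seen, do not overlap one another in these windows, and their matches are descriptions of the letters.

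The 6 genes did not respond as 1 family. SPRY2 and SPRY4 rose within the first hour, SPRY1 fell to about its lowest level by 100 min, SPRED1 climbed slowly, and SPRED2 and SPRED3 were lowest in the middle of the course. At 30 min, 1 of the 6 was called higher than at 0 min and none lower, where 1.71% of all genes were higher and 0.342% lower. At 60 min 2 were higher and 1 lower, beside 5.21% and 1.23% of all genes. At 120 min the counts were 2 and 2, beside 13.6% higher and 6.74% lower. At 240 min all 6 genes were called, with 3 higher and 3 lower, where 21.6% of all genes were higher and 18.5% lower. At 400 min 2 were higher and 1 lower, beside 24.2% and 22.4%. Without the 20 min library 2 genes were higher at 30 min. Without the 0 min library 1 was higher and 1 lower at 120 min, and 1 was lower at 240 min.

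The later comparisons showed how far the first responses were kept. From 60 to 120 min, 1 of the 6 rose and 4 fell, beside 11.1% and 5.06% of all genes. The rise was lost without the 50 min library, with library size scaling, and with every second time point. From 120 to 400 min, 3 rose and 2 fell, beside 23.7% and 24.1% of all genes. Scaling by the added spike-in RNAs, in place of the genes, shifted the median of all genes by 0.25 on the log2 scale between 60 and 120 min. It then left 1544 genes higher and 103 lower in that comparison, instead of 2396 and 1095, and at 60 min 304 higher and 149 lower, instead of 1126 and 266. Of the 6 genes, it left 0 higher and 1 lower from 60 to 120 min, SPRY1. All 6 changed over the course when the terms of the curve were tested together, as did 75.5% of all genes. All 6 also had autocorrelated profiles by the Ljung–Box test at lag 1, as did 60.9% of all genes, so these 2 tests did not set the family apart.

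**Figure D1:**
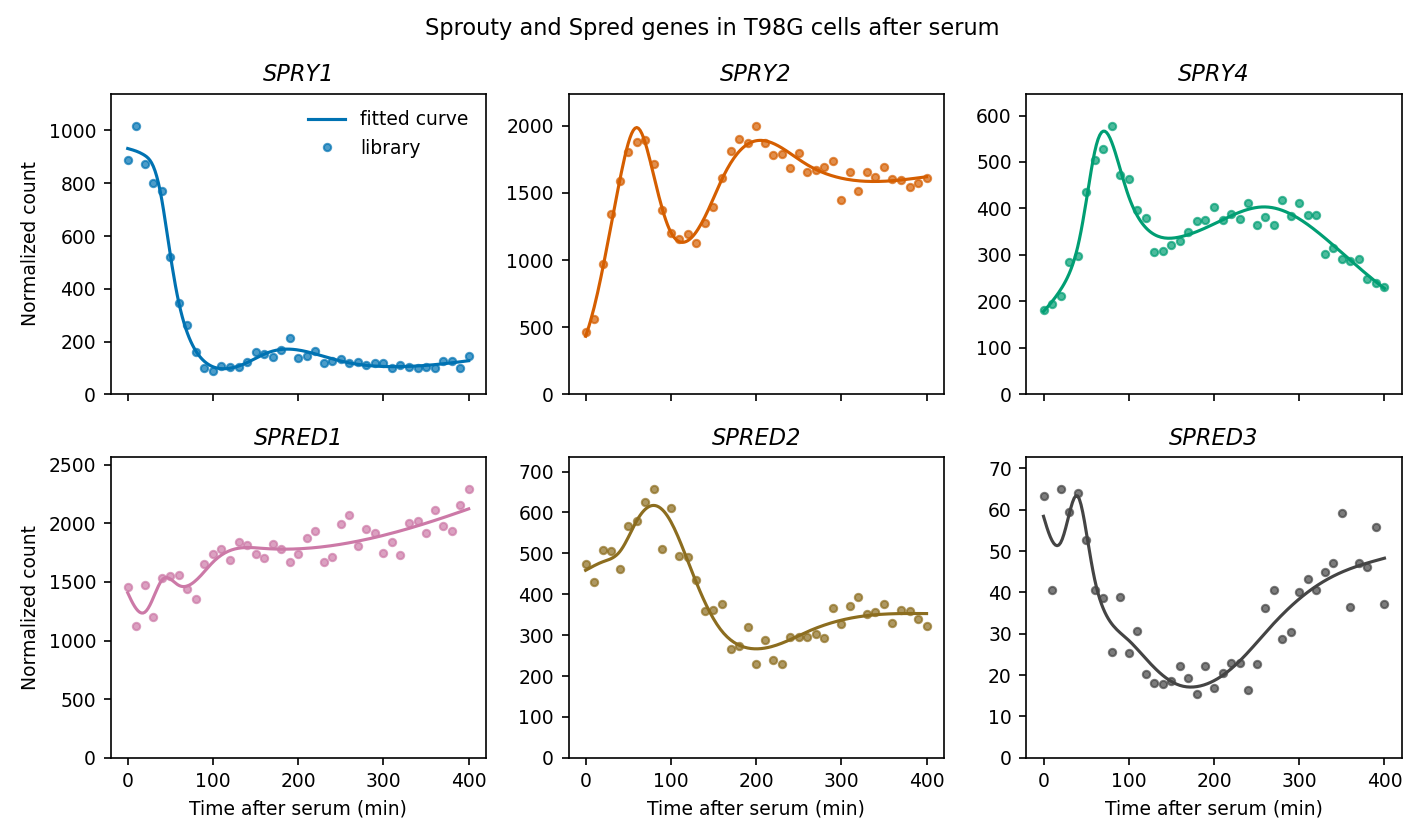
Normalized count of each gene in each of the 41 libraries (points) against minutes after serum, with the fitted curve (line). Each panel has its own vertical axis from 0. SPRY2 and SPRY4 peaked early and rose again, SPRY1 fell from 1018 to 90.18 between 10 and 100 min, and SPRED3 had its lowest library at 180 min.

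SPRY2, the Sprouty gene with the highest counts here, lies at chr13:80335976-80341126 (ENSG00000136158.11). Its normalized count was lowest at 0 min, at 460.6, had a median of 1621, and was highest at 200 min, at 2000. The first rise took it through 563.9 at 10 min, 969.7 at 20 min, and 1345 at 30 min to 1890 at 70 min. It then fell to 1126 at 130 min and rose for a second time to the 200 min value. After 200 min it declined slowly and stood at 1614 at 400 min. Each library from 10 min on was above the 0 min library.

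On the log2 scale of the fitted curve, SPRY2 rose by 1.55 ± 0.10 (SE) at 30 min, with an adjusted p of 7e-16. It was the one member of the family called at this time. The rise was 2.20 ± 0.09 at 60 min, a 4.6-fold change (adjusted p = 1.8e-23). It fell by 0.80 ± 0.06 from 60 to 120 min (adjusted p = 2.8e-15) and rose by 0.50 ± 0.06 from 120 to 400 min (adjusted p = 9.2e-11). At 400 min it was still 1.91 ± 0.09 above 0 min, or 3.75-fold. Without the 0 min library, whose value the curve then has to extrapolate, the 5 changes from 0 min were 2.06 to 2.85. The dip after 60 min was not called with spike-in scaling (-0.54), nor with a curve of 5 degrees of freedom (-0.16), which also lost the rise from 120 to 400 min (0.02).

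SPRY4, at chr5:142310427-142326455 on the minus strand (ENSG00000187678.9), followed later and less far. Its normalized count was lowest at 0 min, at 181.5, had a median of 372, and was highest at 80 min, at 578. It was 283.8 at 30 min, 504.3 at 60 min, and 306.1 at 130 min. A second, flatter rise reached 418.8 at 280 min, and the count ended at 230.3. As for SPRY2, the 0 min library was the lowest of the 41.

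SPRY4 rose by 1.55 ± 0.12 at 60 min (adjusted p = 2.1e-14), by 1.01 ± 0.12 at 120 min (1.7e-09), and by 1.16 ± 0.11 at 240 min (6.6e-12). At 30 min its change was 0.54 ± 0.14, with an adjusted p of 0.017, and at 400 min 0.35 ± 0.12, with an adjusted p of 0.014. It fell by 0.54 ± 0.08 from 60 to 120 min and by 0.65 ± 0.08 from 120 to 400 min. Its curve was thus lower at 400 than at 120 min, where that of SPRY2 was higher, although neither gene moved one way between these times. The 30 min change was called without the 20 min library, the smallest one (0.60), and the 120 min change was not called without the 0 min library (1.19). With spike-in scaling the fall from 60 to 120 min was not called (-0.29).

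SPRY1, at chr4:123396795-123403760 (ENSG00000164056.10), went the opposite way. Its normalized count was highest at 10 min, at 1018, had a median of 126.4, and was lowest at 100 min, at 90.18, a range of 11.3-fold. It stood at 888 before serum and still at 770 after 40 min, then dropped through 345.6 at 60 min to 160.1 at 80 min. A small second rise reached 213.6 at 190 min, and the 400 min library had 146. The libraries up to 40 min lay above all libraries from 50 min on.

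The fitted fall of SPRY1 was 1.43 ± 0.13 at 60 min, and the curve fell by 3.24 ± 0.13 at 120 min, which left 0.106 of the 0 min level (adjusted p = 4.2e-25). It remained 2.79 ± 0.11 lower at 240 min and 2.87 ± 0.14 lower at 400 min. The change at 30 min was -0.11 ± 0.15, with an adjusted p of 0.73. From 60 to 120 min SPRY1 fell by a further 1.81 ± 0.12. In bulk RNA, fewer cells with the transcript and less of it per cell cannot be told apart. Evenly spaced knots moved the 30 min change to -0.53 and past the threshold, and without the 0 min library the 120 min change was -3.76.

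A straight line through the log2 count of SPRY1 over the 7 libraries from 20 to 80 min gave an apparent half-life of 23.9 min, with 21.4 to 27 min for 1 SE of the slope. The line includes the slow first libraries, and it describes the fall of the total, not decay alone. Its running mean over 3 libraries passed the midpoint between its start and its lowest value at 51.1 min. The same midpoint, taken upward, was passed by SPRY2 at 27.6 min and by SPRY4 at 43.2 min. The order was thus SPRY2, SPRY4, and SPRY1, although the steps between them were close to the 10 min between libraries. The running mean of SPRY2 was above its midpoint at 35 of the 41 time points and that of SPRY4 at 21, with a dip of SPRY2 below it before its second rise.

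The make-up of the summed level of SPRY1, SPRY2, and SPRY4 therefore changed. Levels were taken per kb of annotated exon, which allows different genes to be set side by side. SPRY1 made up 56.7% of the sum of these 3 genes at 0 min and SPRY2 36.3%. At 30 min the shares were 30.5% and 63%. At 80 min they were 6.1% and 80.6%, and SPRY4 had 13.3%. At 400 min SPRY2 made up 87.5%, SPRY1 6.42%, and SPRY4 6.12%. SPRY2 exceeded SPRY1 in the 20 min library for the first time and in all 39 libraries from there on, and from 100 min on their ratio was between 10.6 and 20.4. The summed level went from 395 normalized counts per kb before serum to 750 at 60 min, then to 457 at 120 min and 423 at 130 min. It rose again to 719 at 200 min and ended at 574.

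**Figure D2:**
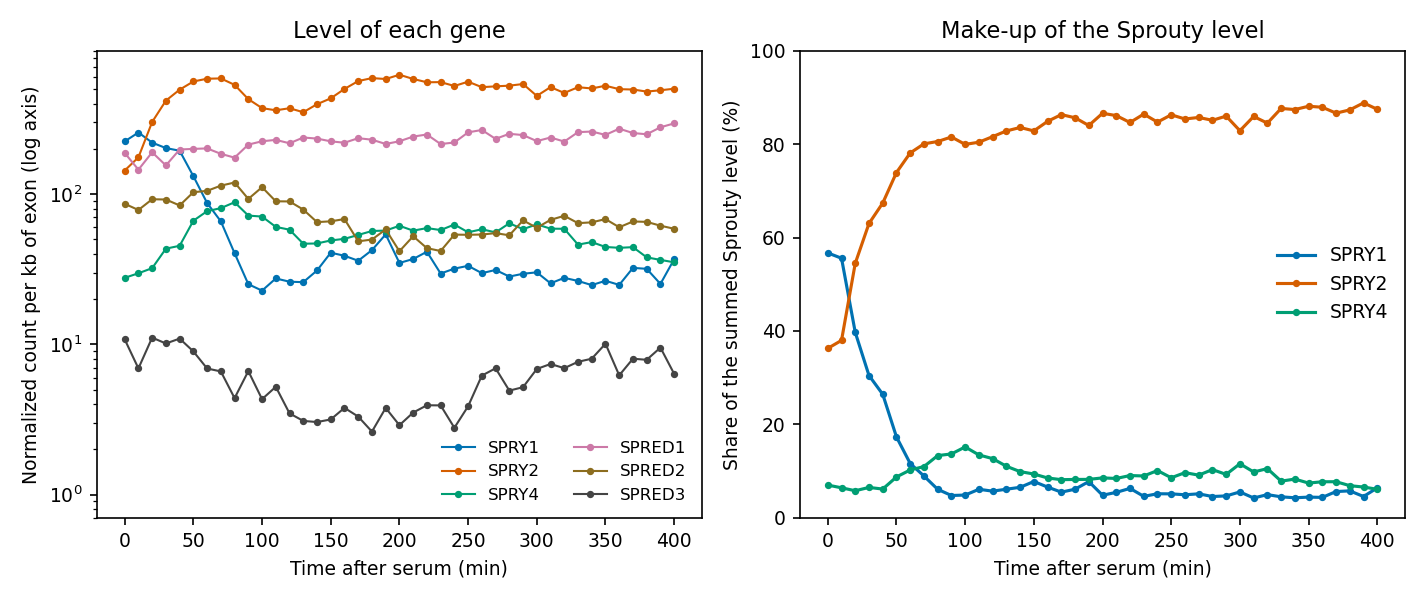
Left, normalized count per kb of annotated exon of each gene in each library on a log axis, against minutes after serum. Right, the share of each Sprouty gene in the summed per kb level of SPRY1, SPRY2, and SPRY4 in each library, in percent. The lines of SPRY1 and SPRY2 cross between 10 and 20 min, and SPRY2 holds 87.5% at 400 min.

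SPRED1, the gene lost in Legius syndrome, lies at chr15:38252836-38357249 (ENSG00000166068.12). Its normalized count was lowest at 10 min, at 1127, had a median of 1779, and was highest at 400 min, at 2291. The 0 min library had 1457 and the 80 min library 1355. From 90 min on, each library exceeded the 0 min library. The changes were small beside those of the Sprouty genes.

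SPRED1 had changed by 0.06 ± 0.10 at 60 min (adjusted p = 0.82) and by 0.33 ± 0.10 at 120 min (0.012). It rose by 0.36 ± 0.10 at 240 min (adjusted p = 0.0018) and by 0.59 ± 0.11 at 400 min (7.4e-06), or 1.51-fold. The rises of 0.27 ± 0.08 from 60 to 120 min and 0.26 ± 0.07 from 120 to 400 min were also called. With spike-in scaling none of these 4 rises was called, with values of 0.42, 0.65, 0.53, and 0.32. Single libraries also decided some calls. The 240 min rise was not called without the 0 min library (0.77) or the 10 min library (0.30). The rise from 60 to 120 min was not called without the 50 min library (0.27), and the last rise without the 400 min library (0.22). With library size scaling the 240 min rise (0.30), the rise from 60 to 120 min (0.25), and the last rise (0.25) were not called. With every second time point the 240 min rise (0.32) and the rise from 60 to 120 min (0.23) were not called. The 120 min change was called without the 30 min (0.36) or the 60 min library (0.34). It was also called with evenly spaced knots (0.40), 5 (0.37) or 10 degrees of freedom (0.36), and in DESeq2 (0.33).

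SPRED2, at chr2:65310851-65432637 on the minus strand (ENSG00000198369.9), had its highest library early in the course and its lowest in the middle. Its normalized count was highest at 80 min, at 656.8, had a median of 361.6, and was lowest at 200 min, at 229.1. It was 474.1 at 0 min and 323.4 at 400 min. The libraries from 130 min on all lay below the 0 min library. The fitted change was 0.34 ± 0.13 at 60 min (adjusted p = 0.12), and SPRED2 fell by 0.67 ± 0.12 at 240 min (1.2e-05).

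At 400 min the change of SPRED2 was -0.38 ± 0.14, with an adjusted p of 0.018. The fall of 0.45 ± 0.10 from 120 to 400 min was called (9e-05), although the gene did not move one way between these times. Its mean normalized count was 263 over 200 to 250 min and 348 over 350 to 400 min. The 240 min fall was not called without the 0 min library (-0.28) or with spike-in scaling (-0.62), and the fall from 120 min was not called with spike-in scaling (-0.42) or 5 degrees of freedom (-0.19).

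SPRED3, at chr19:38388421-38399587 (ENSG00000188766.12), was the least abundant of the 6, with 11 to 63 raw counts per library. Its normalized count was highest at 20 min, at 64.95, had a median of 36.43, and was lowest at 180 min, at 15.38. It was 63.28 at 0 min, 40.52 at 10 min, and 37.25 at 400 min. All libraries from 120 to 250 min lay between 15.38 and 23.03, below all others. The scatter about the curve was 0.263 on the log2 scale, against 0.076 for SPRY2.

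SPRED3 fell by 1.28 ± 0.25 at 120 min (adjusted p = 5.6e-05) and by 1.19 ± 0.23 at 240 min (2.4e-05). It fell by 0.85 ± 0.21 from 60 to 120 min (0.0017) and rose by 1.01 ± 0.19 from 120 to 400 min (1.3e-05), a 2.01-fold recovery. The change at 400 min was -0.27 ± 0.24, with an adjusted p of 0.35. Both falls from 0 min rest on the 0 min library, since without it the changes were -0.14 at 120 min and -0.02 at 240 min, and neither was called. The fall from 60 to 120 min was not called without the 120 min library (-0.77), with spike-in scaling (-0.62), or with every second time point (-0.82). The recovery after 120 min was called in all 22 alternative fits, at 0.93 to 1.29.

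**Figure D3:**
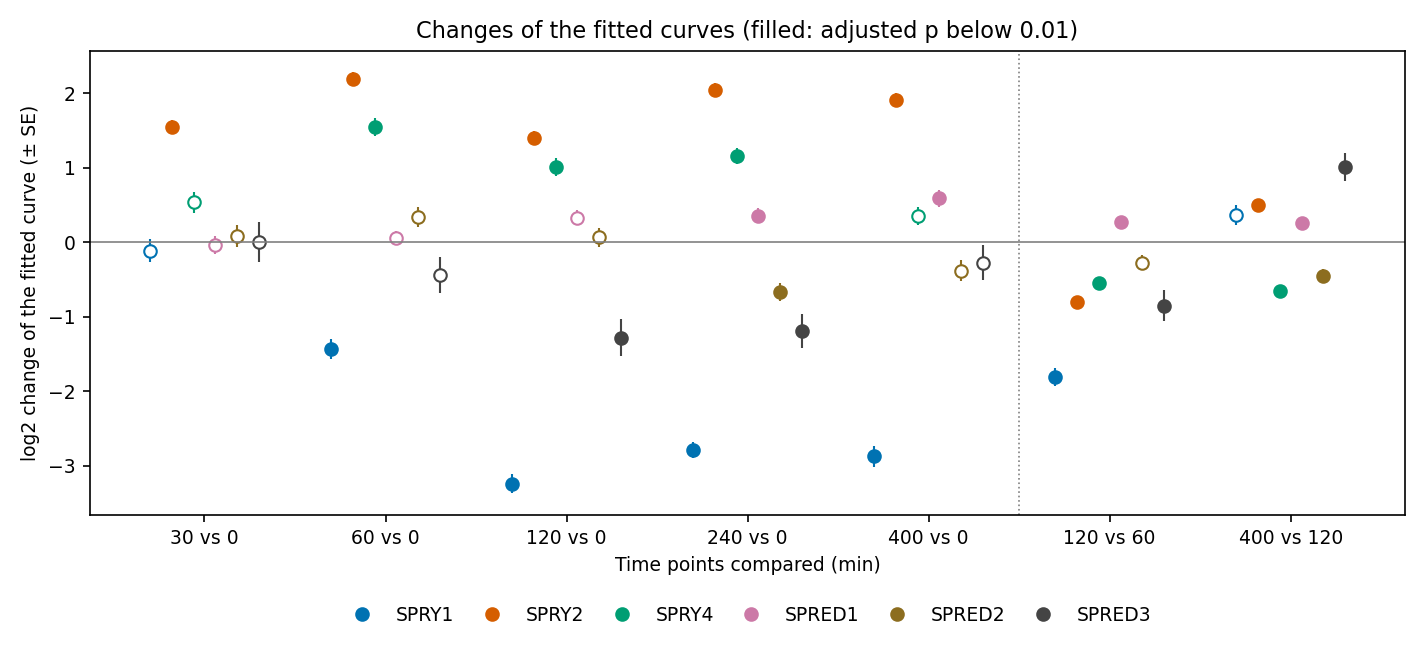
Log2 change of the fitted curve (points) with its SE (bars) for the 6 genes in the 5 comparisons with 0 min and, right of the dotted line, in the 2 later comparisons. Filled points have an adjusted p below 0.01. SPRY2 is highest in all 5 comparisons with 0 min, from 1.40 to 2.20, and SPRY1 reaches -3.24 at 120 min.

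Per kb of annotated exon, the order of the 6 genes changed mainly through SPRY1. Over the 3 libraries from 0 to 20 min, SPRY1 had 234 ± 20.2 (SD) normalized counts per kb, SPRY2 207 ± 83.8, and SPRED1 174 ± 25.1. The libraries of SPRY1 and SPRY2, and those of SPRY2 and SPRED1, overlapped. SPRED2 had 85.6 ± 7.03, SPRY4 29.8 ± 2.21, and SPRED3 9.59 ± 2.33, each below the gene before it without overlap. The SD here is between libraries at neighbouring times and so holds any change over the window.

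Over the 6 libraries from 350 to 400 min, SPRY2 was highest with 499 ± 15.1 per kb and SPRED1 second with 267 ± 18.8. SPRED2 followed with 63.3 ± 3.66, SPRY4 with 40.4 ± 4.32, SPRY1 with 29.6 ± 4.81, and SPRED3 with 8.01 ± 1.58. In this window the libraries of SPRY4 and SPRY1 overlapped, and no other neighbours in the order did. SPRY1 thus moved from the first place to the fifth. Within the Spred genes SPRED1 made up 66% of the summed per kb level at 0 min and 81.9% at 400 min, while SPRED2 went from 30.2% to 16.3%.

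Across the 41 libraries, Pearson's r of the log2 normalized counts was 0.605 between SPRY2 and SPRY4 and -0.758 between SPRY1 and SPRED1. The other 13 pairs had r between -0.561 and 0.458. Neighbouring libraries share the time course, so these values describe common trends and not independent samples.

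Among 11886 or 11887 other protein-coding genes with a mean normalized count of at least 50, the 3 most like each gene were named by r over the 41 libraries. For SPRY1 these were KCNJ2, a potassium channel (r = 0.952), CDKN1B, the cell cycle inhibitor p27 (0.928), and ACVR2B, an activin receptor (0.921). CDKN1B had 2501 normalized counts at 0 min and 306.5 at its lowest, at 140 min. For SPRY2 they were RCAN1, an inhibitor of calcineurin (0.857), the interferon-induced GTPase gene GBP1 (0.855), and ITPRIP (0.84). For SPRY4 they were IBA57 (0.878), ZC3H12A, which encodes the ribonuclease regnase-1 (0.857), and GBP2 (0.848), and each of them peaked at 60 or 80 min.

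SPRED1 was closest to VPS36, a subunit of the endosomal sorting complex (0.97), API5 (0.966), and USP38 (0.966), all of which were highest at 400 min. SPRED2 was closest to CBX2, a Polycomb subunit (0.91), the DNA-binding factor ARID3A (0.897), and HES1, a repressor downstream of Notch (0.89). CBX2 and ARID3A peaked at 80 min, as SPRED2 did, and were lowest at 210 and 200 min. SPRED3 was closest to ASB7 (0.913), PPP1R3D (0.875), and EPG5 (0.871). By this measure SPRED1 had the closest partner of the 6 genes, and SPRY2 the least close one. None of the 3 genes given for SPRY1 or for SPRY2 was among the first 3 by Spearman's rho, which weighs the few high or low libraries less.

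The ERK cascade itself was represented by 12 genes. Each list gene named from here on passed the threshold in the comparison given for it. None of the 11 cascade genes tested was called at 60 min, with a median log2 change of 0.01 against 0.012 over all genes. At 400 min 6 were higher and 1 lower, beside 24.2% and 22.4% of all genes, with a median of 0.26 against -0.004. MAP2K1, which encodes the kinase MEK1, rose by 0.97 ± 0.07, and NRAS by 0.92 ± 0.11. MAPK3, which encodes ERK1, fell by 0.59 ± 0.13. Without the 0 min library, and likewise with spike-in scaling, 2 of the list were higher at 400 min and none lower.

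Of 17 adaptors, regulators, and binding partners, 3 were higher and none lower at 60 min, beside 5.21% and 1.23% of all genes (median 0.00 against 0.012). At 400 min 7 were higher and 5 lower, beside 24.2% and 22.4% (median -0.10 against -0.004). At 400 min GAB1, a docking protein of receptor signalling, fell by 2.69 ± 0.16, and SOS1, the RAS exchange factor, by 1.40 ± 0.16. CAV1, the caveolin that can bind Sprouty proteins, rose by 1.92 ± 0.09, and PPP2CA, the catalytic subunit of the phosphatase PP2A, by 1.17 ± 0.05. Without the 0 min library, as with spike-in scaling, none was called at 60 min, and 3 were higher at 400 min.

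Of 10 receptor tyrosine kinases tested, 1 was higher and none lower at 60 min, beside 5.21% and 1.23% of all genes (median 0.12 against 0.012 over all genes), a call lost without the 0 or the 10 min library. At 400 min 4 were higher and 4 lower, beside 24.2% and 22.4% of all genes (median -0.09 against -0.004). Without the 0 min library 2 were lower at 400 min. MET rose by 2.75 ± 0.16 and EGFR by 2.23 ± 0.08 at 400 min. IGF1R rose by 1.90 ± 0.09 at 240 min, and FGFR3, with 30.09 normalized counts at 0 min, rose by 1.22 ± 0.26 at 120 min. Of the 5 comparisons with 0 min, each of these 4 receptors thus had its largest change at 120 min or later. IGF1R was the receptor already called higher at 60 min.

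The other feedback inhibitors had the most calls of the 5 lists at 30 min, when SPRY2 was already raised. Of 7, 4 were higher and none lower at both 30 and 60 min, where 1.71% and 5.21% of all genes were higher, with medians of 0.52 and 0.54 against 0.051 and 0.012 over all genes. DUSP6, a phosphatase of ERK in the cytoplasm, was highest at 40 min, with 2395 normalized counts against 454.4 at 0 min. It then fell to 139.9 at 130 min and stood at 670.4 at 400 min. SPRY2 and SPRY4 also had the low between their rises in the 130 min library. For SPRY2 this low was shallow, since its count went only from 1199 at 100 min to 1126 at 130 min. DUSP5, a phosphatase of ERK in the nucleus, rose by 3.42 ± 0.16 on the fitted curve at 60 min. Its single libraries had 979.3 normalized counts at 0 min and 8909 at 60 min. SPRY2 and DUSP5 were still above 0 min at 120 min, while DUSP6 fell by 1.48 ± 0.13 between these times.

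ERRFI1, an inhibitor of the EGF receptor, rose more slowly, by 2.08 ± 0.07 at 120 min. LRIG1, another inhibitor of receptor tyrosine kinases, fell by 3.34 ± 0.13 on the fitted curve at 400 min. Its libraries had 1242 normalized counts at 0 min and 145.1 at 400 min. The list therefore held genes that went up and genes that went down, as the Sprouty genes did. At 400 min 4 of the 7 were higher and 3 lower, beside 24.2% and 22.4% of all genes, and with spike-in scaling 2 were higher.

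**Figure D4:**
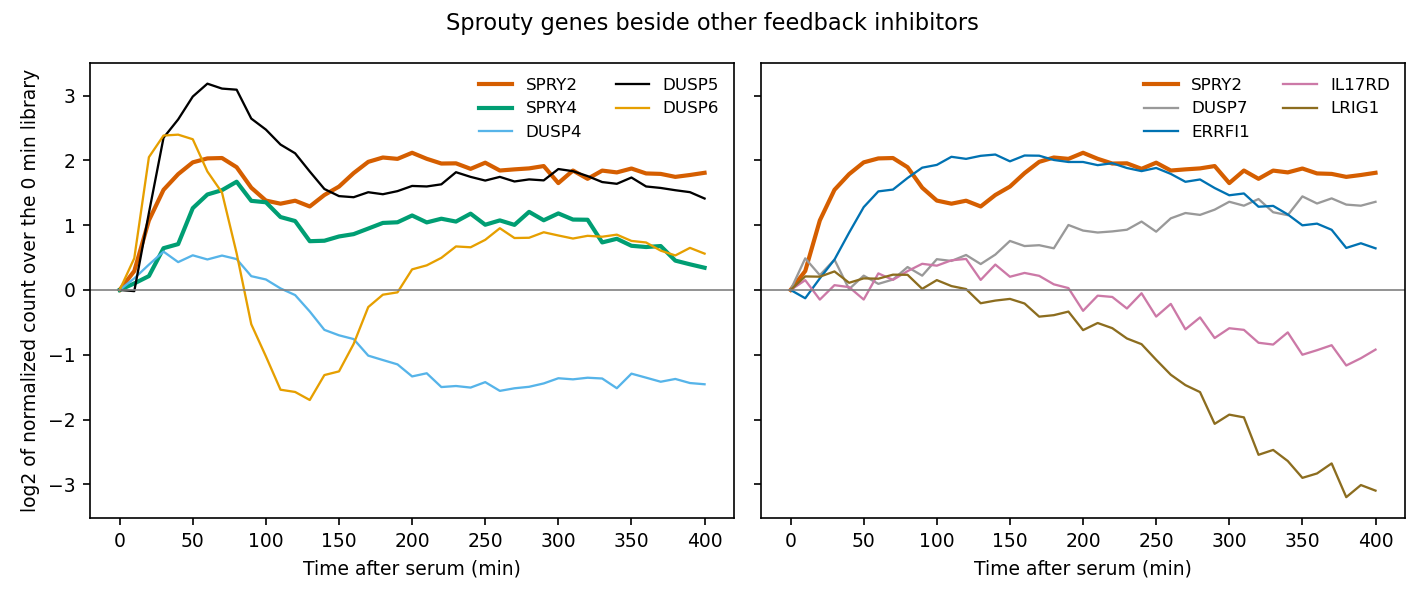
Log2 of the normalized count in each library over that of the 0 min library, against minutes after serum, for SPRY2 and SPRY4 (thick lines) and the 7 other feedback inhibitors. SPRY2, SPRY4, DUSP5, and DUSP6 peak between 40 and 80 min or have their first peak there, and DUSP6, SPRY2, and SPRY4 each have a low at 130 min.

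The last list held 8 genes outside the family that are used as transcription readouts of ERK, 2 of which, DUSP4 and DUSP6, are also feedback inhibitors. At 60 min 4 were higher and 1 lower, beside 5.21% and 1.23% of all genes (median 0.43 against 0.012). At 400 min 3 were higher and 4 lower, beside 24.2% and 22.4% (median -0.42 against -0.004). Without the 0 min library, or with spike-in scaling, 2 were higher and none lower at 60 min. CCND1, the cyclin of G1 phase, rose by 2.64 ± 0.06 at 400 min, and EPHA2, an ephrin receptor, by 2.62 ± 0.16 at 120 min. PHLDA1 fell by 1.60 ± 0.06 at 120 min. Its libraries had 12286 normalized counts at 0 min and 3958 at their lowest, at 130 min. SPRY1 and PHLDA1 thus fell while SPRY2, SPRY4, and EPHA2 were raised.

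A pair of annotated lncRNAs that passed the filter start within 100 kb of a Sprouty or Spred start. SPRY4-AS1 starts 1246 bases from SPRY4 on the opposite strand and had 2 to 24 counts per library. It was not called in any comparison with 0 min (0.15 with an adjusted p of 0.92 at 60 min), while the test over all terms of its curve gave an adjusted p of 0.0045. LINC02934 starts 4074 bases from SPRED2 on the opposite strand, had 0 to 15 counts, and gave 0.45 in that test. Counting was by strand, so reads of these genes and of their partners were kept apart. On its own strand, SPRED2 overlaps the span of 1 further lncRNA, ENSG00000232693, which had at most 8 counts, and the other 5 genes overlap none.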

How the data were processed

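Reads were trimmed (cutadapt 1.11) and aligned to GRCh38 (STAR 2.5.2a) by the authors. The deposited count of a gene is the number of read pairs that featureCounts placed on its GENCODE release 29 exons by strand, and a pair that fits several genes or places was added to each. The deposited signal value is that count over a DESeq2 1.24.0 size factor. These are the normalized counts used here. Size factors ran from 0.447 to 1.6. Positions, exon lengths, and symbols came from GENCODE release 44 on the same build (58207 genes matched), and 45 copies of Y chromosome pseudoautosomal genes were left out.

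The counts were fitted in edgeR 4.0.16 (R 4.3.3) with a natural cubic spline of time of 7 degrees of freedom (knots at 20, 40, 60, 100, 160, and 260 min), which left 33 residual degrees of freedom. Genes needed over 10 counts in 1 library and over 2 in 3 consecutive time points. P-values were adjusted by the Benjamini-Hochberg method. Genes were named by fixed rules: the 6 genes, up to 4 called genes per list with the largest change from 0 min, the 3 genes most like each, and lncRNAs within 100 kb. List markers and promoter motifs were read from the same tables. The 6 genes and the lists were chosen with earlier results of these data known. The fits were also run on simulated flat genes and genes moving 1 way, not on courses with a peak or a dip. The outcome is not reported here. Alternatives changed the scaling, filter, knots, degrees of freedom, tool (DESeq2 1.42.0), threshold, and libraries. Single libraries were left out only at 0, 10, 20, 30, 50, 60, 120, 240, 300, 340, and 400 min. No library from 130 to 230 min was left out alone. Likeness used log2 of the normalized count plus 1. Depth limits SPRED3 most, and counting error is only part of the scatter about the curves. Single values of some listed genes are not reported here.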

Additional observations from a re-analysis of the deposited data

How the results depend on the processing

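Of the 27 called changes of the 6 genes, 14 kept their direction and their call in all 22 alternatives, and none changed direction. The 11 changes that did change direction were not called. SPRY1 gave 0.26 at 30 min and -0.32 from 120 to 400 min with 5 degrees of freedom. SPRED1 at 30 min gave 0.05 with evenly spaced knots, 0.04 with 5 degrees of freedom, 0.07 with every second time point, and -0.26 to 0.41 with single libraries left out. At 60 min it gave -0.19 with spike-in scaling and -0.01 to 0.46 without single libraries. SPRED2 gave -0.10 at 30 min and 0.00 from 60 to 120 min with spike-in scaling, -0.06 at 30 min and -0.15 at 120 min with 5 degrees of freedom, and -0.43 to 0.01 at 400 min without single libraries. SPRED3 at 30 min gave 0.00 with TMM (trimmed mean of M-values), -0.07 with library size, -0.19 with spike-ins, -0.05 with evenly spaced knots, -0.17 without the 4 libraries farthest from the curves (20, 90, 250, and 300 min), and -0.17 to 1.33 without single libraries. Without single libraries it gave -0.57 to 0.71 at 60 min and -0.39 to 0.89 at 400 min, the upper ends without the 0 min library. The cause was not tested.

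Counts of the 6 genes moved in several alternatives, and not every move is listed. At 30 min, 2 were higher with evenly spaced knots (and 1 lower), 5 degrees of freedom, an adjusted p below 0.05, or without the 4 farthest libraries, and 1 to 2 without single libraries. At 120 min, 1 to 3 were higher and 1 to 2 lower without single libraries, and at 240 min 1 to 3 were lower. SPRED1 was also called higher at 120 min with evenly spaced knots, 5 or 10 degrees of freedom, DESeq2, or an adjusted p below 0.05. It was not called at 240 min with library size, spike-ins, or every second time point. At 400 min, 1 was higher with spike-ins, and 2 were lower with library size, evenly spaced knots, 10 degrees of freedom, or an adjusted p below 0.05. SPRY4 was also higher at 400 min at an adjusted p below 0.05. From 60 to 120 min, 0 were higher with library size, spike-ins, or every second time point, and 0 to 1 without single libraries, and 1 was lower with spike-ins. SPRED2 was called lower there with 5 (-0.55) or 10 degrees of freedom (-0.34), or at an adjusted p below 0.05. From 120 to 400 min, 1 was lower with spike-ins or 5 degrees of freedom. SPRY1 was called higher there with evenly spaced knots (0.64) or at an adjusted p below 0.05. With spike-ins the highest library of SPRY2 was at 250 min and those of SPRY4 and SPRED2 at 100 min. Per kb of the longest transcript, the 0 to 20 min means were 355 for SPRY1, 36.6 for SPRY4, and 104 for SPRED2. The 350 to 400 min means were 44.9 for SPRY1, 592 for SPRY2, 49.4 for SPRY4, 77.1 for SPRED2, and 9.61 for SPRED3.

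Over all genes, 444 were called at 30 min, and 136 with spike-ins, 227 with every second time point, 1032 with evenly spaced knots, 933 at an adjusted p below 0.05, 128 without the 0 min library, 840 without the 20 min library, and 1804 without the 4 farthest. At 60 min 1392 became 453 with spike-ins, 908 with every second time point, 2177 at 0.05, and 311 without 0 min. At 120 min 4397 became 1370 with spike-ins, 7101 with evenly spaced knots, and 793 without 0 min. At 240 and 400 min 8678 and 10070 became 3967 and 5189 with spike-ins and 1785 and 2906 without 0 min. From 60 to 120 min 3491 became 1647 with spike-ins, 1484 with every second time point, and 7186 with 5 degrees of freedom. From 120 to 400 min 10337 became 5608 with spike-ins. The Ljung–Box test called 13182 genes, and 7613 with spike-ins, when SPRED1 was not called (adjusted p = 0.02). A paired fit does not apply, since each time point has 1 library.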
